A study of Mus musculus with 2 samples.

Results

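Gfap-poor astrocytes of the mouse dentate gyrus were described from droplet single-cell RNA sequencing. They were 1248 of the 1664 astrocytes and of the 16636 cells kept in all. They were chosen by measured counts of unique molecular identifiers (UMIs, each standing for 1 captured mRNA molecule). Cells under 1000 UMIs or 500 detected genes, or with more than 20% mitochondrial UMIs, were left out. An astrocyte had at least 4 UMIs summed over Aqp4, Gjb6, S100b, Hapln1 and Agt, and more of these than of Riiad1, Frzb, Hopx, Tfap2c and Wnt8b, which are used here to mark radial glia-like stem cells. It also had at most 2 UMIs over each of Eomes with Neurod1 (neuronal progenitors), P2ry12 with Cx3cr1 (microglia), Cldn5 with Flt1 (endothelium) and Mog with Ermn (oligodendrocytes). The 416 astrocytes with the most Gfap UMIs per 10000 are called Gfap-rich, and all other astrocytes are the Gfap-poor members. The mirror of the rule, with at least 4 UMIs of the stem cell genes and more of them than of the astrocyte genes, gave 1579 radial glia-like cells. Of the stem cell genes, Hopx was also found in 932 of the 1248 members.

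Mice were 30 days old. The conditional knockouts (cKO; Phf2flox/flox) and the controls (Phf2+/+) both carried the Nestin-Cre transgene (B6.Cg-Tg(Nes-cre)1Kln/J), whose promoter is active in neural precursors. The labels give 4 mice per genotype, perfused with saline and dissociated with an enzymatic kit for adult brain, and 1 sample per genotype. The 2 barcode suffixes of the deposited matrix are called library 1 and library 2, because nothing in the sources used here ties a suffix to a genotype. Genotypes were therefore not compared, each value is given for both libraries, and every contrast below lies between groups of cells found in both. The libraries held 102897659 and 107266420 UMIs, of which the members held 4133815 and 4289318. Of the kept cells, 23 barcode sequences occurred in both libraries, and 0 of these were members.

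Astrocytes clear glutamate and potassium after neuronal firing, move water through aquaporin 4, share small molecules through connexin channels and supply neurons with lactate and lipid particles. Gfap encodes an intermediate filament protein. It is abundant in fibrous and reactive astrocytes and in the radial glia-like stem cells of the dentate gyrus, and many protoplasmic astrocytes of grey matter contain little of it.

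The members made up 7.32% of the kept cells of library 1 (604 cells, exact Clopper-Pearson 95% interval 6.76 to 7.90%) and 7.68% of library 2 (644 cells, 7.12 to 8.28%). Intervals throughout cover counting error only. Most members carried the transcripts of astrocytes, but a distinct minority did not. The label was checked with 10 astrocyte markers that the rule does not use, Slc1a2, Slc1a3, Aldoc, Gja1, Aldh1l1, Slc7a10, Fgfr3, Ntsr2, Mlc1 and Slc39a12. In 1072 members these markers summed to at least 50 UMIs per 10000, with a median of 226. In the other 176 members (14.1%; 82 cells of library 1 and 94 of library 2) they fell short of this limit, which was set after seeing the data, with a median of 3.50 UMIs per 10000. Microglia had medians of 2.42 and 2.5 UMIs per 10000. Few members lay near the limit: 21 held between 30 and 80 UMIs per 10000, whereas 110 held under 10 and 1040 held at least 120. Of the 416 Gfap-rich astrocytes 0 lay under it, and their lowest value was 60.7.

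**Figure D1:**
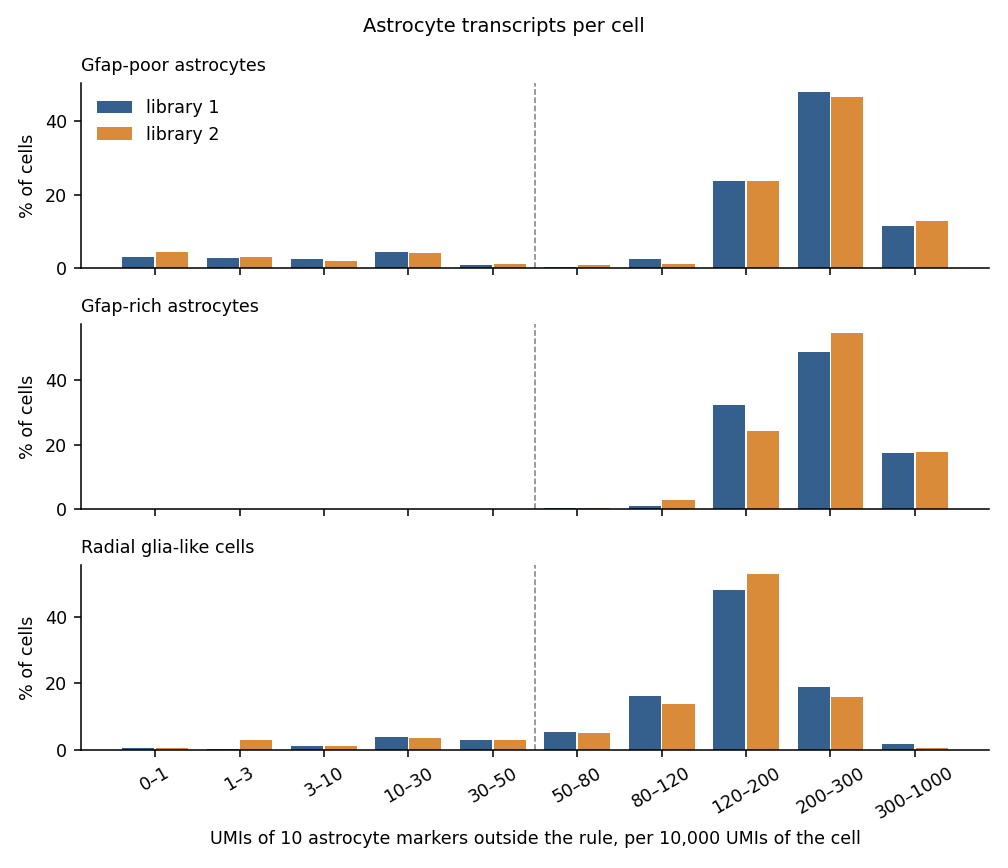
Share of cells (%) by the summed UMIs of 10 astrocyte markers outside the rule per 10000 UMIs of the cell, in unequal bins, for Gfap-poor astrocytes, Gfap-rich astrocytes and radial glia-like cells, with 1 bar per library and a dashed line at 50. A group of 176 Gfap-poor members lies left of the line and 1072 lie right of it, while no Gfap-rich astrocyte lies left of it.

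The 176 marker-poor members went against the astrocyte label. Aqp4 stood at 15.7 and 28.1 CPM (UMIs per 1000000 UMIs of the summed cells) in them, against 1439 and 1930 CPM in the 1072 marker-bearing members. Slc1a2, the main glutamate transporter of astrocytes, stood at 303.8 and 291.5 CPM in the marker-poor members, against 11192 and 10307 CPM in the marker-bearing ones. S100b, which oligodendrocyte lineage cells also express, stood at 708 and 1026 CPM in the marker-poor members and at 408 and 392 CPM in the marker-bearing ones. It made up most of the rule's astrocyte sum in 119 marker-poor members (67.6%), against 33 marker-bearing members (3.08%). Gjb6, the gap junction protein connexin 30, made up most of it in another 29 marker-poor members.

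Markers of other cell types filled the marker-poor cells. With at least 5 UMIs counted as carrying a list, 89 of the 176 carried oligodendrocyte precursor markers, 62 oligodendrocyte markers, 61 neuroblast markers, 47 neuron markers, 34 mural markers, 15 endothelial markers, 13 microglial markers and 11 choroid plexus markers. With the red cell list (haemoglobin genes) included, at least 1 list of another cell type was carried by 173 of the 176 (98.3%), against 289 of the 1072 marker-bearing members (27.0%) and 118 of the 416 Gfap-rich astrocytes (28.4%). The red cell list alone was carried by 30 of the 176 (17.0%), by 166 of the 1072 (15.5%) and by 74 of the 416 (17.8%). Without that list, which was left out after its values were seen, the counts were 173 (98.3%), 141 (13.2%) and 53 (12.7%). Gpr17, a receptor of committed oligodendrocyte precursors, stood at 652 and 746 CPM in the marker-poor members and at 0.303 and 1.78 CPM in the marker-bearing ones. Ndnf and Reln, which mark Cajal-Retzius cells among others, stood in the marker-poor members at 1937 and 677 CPM and at 815 and 279 CPM. The collagen-binding gene Dcn of fibroblasts stood at 322 and 440.5 CPM in the marker-poor members, against 0 and 3.57 CPM. The marker-poor members held 99.4% of all member UMIs of Gpr17, 98.7% of those of Apod, 98.3% of those of Ptgds, 94.5% of those of Ndnf and 98.3% of those of Dcn. They were also deeper, with a median of 9263.5 UMIs against 5800.5 in the marker-bearing ones, and had less mitochondrial RNA, with medians of 5.08% against 10.2%. Scrublet marked 1 of the 176 and 8 of the 1072 as doublets. The part of mixed droplets in these cells was not tested beyond this. The results below are given over all 1248 members, as the rule has it, and over the 1072 marker-bearing members, an alternative chosen after seeing the data.

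The genes that chose the members are described without a test. The label markers were Aqp4, the water channel of astrocyte end-feet, Gjb6, Hapln1, a link protein of the perineuronal matrix, and Agt, the angiotensin precursor. All 4 were found together in 512 members (41.0%), every one of them marker-bearing, and in 44.5% of Gfap-rich astrocytes. None of the 4 was found in 93 of the marker-poor members (52.8%) and in 8 of the marker-bearing ones (0.746%). Over all members Aqp4 stood at 1153 CPM in library 1 and 1519 CPM in library 2, and Gjb6 at 645 and 641 CPM. Hapln1 stood at 253 and 267 CPM and Agt at 275 and 433 CPM. Radial glia-like cells had 126 and 129 CPM of Aqp4, 47.5 and 32.4 CPM of Gjb6, 33.5 and 25.4 CPM of Hapln1 and 91.2 and 92.1 CPM of Agt. At least 1 Aqp4 UMI was found in 84.4% and 85.2% of members, at median depths of 6575.5 and 5904 UMIs. In microglia, which should lack the gene, the share was 3.20% and 4.03%, at median depths of 7835 and 6949 UMIs. With each cell thinned to 1000 UMIs, the Aqp4 share was 59.8% and 68.3% in members and 0.507% and 0.853% in microglia. Agt was found in 59.3% and 71.6% of members and in 1.11% and 1.40% of microglia, or in 21.7% and 35.1% of members and 0.0951% and 0.116% of microglia at 1000 UMIs. Aqp4 and Agt UMIs count towards the rule, so the gap to microglia follows in part from how members were chosen.

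Cells just inside and just outside the rule's limits had similar values. The sum of the 5 astrocyte genes was exactly 4 in 82 members, and 98 kept cells just outside had a sum of 3. The 10 astrocyte markers had a median of 91.9 UMIs per 10000 in these 82 members and of 103 in the 98 cells outside, and 54.9% and 58.2% of them were marker-bearing. Both sets thus mixed marker-bearing and marker-poor cells. Gfap (ENSMUSG00000020932, minus strand of chromosome 11, 102887336 to 102900912 in mm10) was at 0 UMIs in 765 members (61.3%) and at 1 to 5 UMIs in 483. The highest member had 3.41093 and the lowest Gfap-rich cell 3.41103 Gfap UMIs per 10000, so the groups touch. Gfap-rich cells held a median of 3 Gfap UMIs and at most 89. Summed per library, Gfap stood at 90.5 and 84.6 CPM in members, 627 and 741 CPM in Gfap-rich astrocytes and 320 and 235 CPM in radial glia-like cells. Microglia had 5.76 and 7.41 CPM of Gfap, below the members in both libraries. Many members at 0 were shallow: the marker-bearing members with no Gfap UMI had a median of 4638.5 UMIs, and those with some had 7494.

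Gfap-poor astrocytes differed from Gfap-rich astrocytes in a small set of genes that held with and without the marker-poor cells. Lower in both were Serpinf1, a secreted anti-angiogenic serpin, Igfbp5, a binding protein of insulin-like growth factors, the complement component C4b, and Id3 and Id4, which block bHLH transcription factors. Higher in both was Igfbp2, another binding protein of insulin-like growth factors. Serpinf1 stood at 41.6 and 29.4 CPM in members and 68.9 and 113.9 CPM in Gfap-rich astrocytes, a log2 fold change of −1.54 ± 0.15 (SE; edgeR adjusted p = 1.17e-23). Of the members' Serpinf1 UMIs 53.0% lay in marker-poor cells, and without these the log2 fold change was −2.13. With all members the log2 fold change was −0.86 in library 1 alone and −2.09 in library 2 alone. The SE comes from the fit and does not measure this spread between libraries. Igfbp5 stood at 36.0 and 30.5 CPM in members, against 86.7 and 78.5 CPM in Gfap-rich astrocytes, −1.45 ± 0.15 (edgeR adjusted p = 2.25e-19), and −1.24 without the marker-poor cells. In both genes the member sums lay below the Gfap-rich sums, but with 2 sums per group this adds nothing to the test. C4b, one of the genes of the fibrous and reactive list, stood at 15.5 and 11.2 CPM in members and at 58.7 and 27.7 CPM in Gfap-rich astrocytes, with log2 fold changes of −1.80 ± 0.23 (edgeR adjusted p = 8.95e-14) and −1.72 without the marker-poor cells.

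Id4 stood at 286 and 314 CPM in members and 476 and 548 CPM in Gfap-rich astrocytes, −0.91 ± 0.08 (edgeR adjusted p = 2.23e-30), and −0.49 without the marker-poor cells. Id3 stood at 432 and 539.7 CPM in members and 667 and 927 CPM in Gfap-rich astrocytes, −0.85 ± 0.07 (edgeR adjusted p = 2.01e-30) and −0.51. Both Id genes were lower in members in each library. Btbd3, a regulator of dendrite orientation in neurons, was lower by −1.16 ± 0.14 (edgeR adjusted p = 7.41e-16), and by −0.88 without the marker-poor cells. Pygb, the brain glycogen phosphorylase, fell by 0.90 and by 0.48 on the log2 scale, and Hmgcs1, an early enzyme of cholesterol synthesis, by 0.64 and by 0.36. The phospholipase gene Plaat3 and the small heat shock protein gene Hspb8 were lower by −1.15 ± 0.17 and −1.09 ± 0.18 (edgeR adjusted p = 5.05e-10 and 6.73e-08), but passed no threshold with DESeq2 (adjusted p = 0.0801 and 0.183). Igfbp2 stood at 438 and 532 CPM in members and 263 and 345 CPM in Gfap-rich astrocytes, 0.54 ± 0.08 (edgeR adjusted p = 4.97e-10) and 0.59 without the marker-poor cells. It was chosen for its even spread over cells after its values were seen: 662 of the 1072 marker-bearing members held it, and the 5 highest of them held 4.19% of its UMIs.

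The size of the difference depended on the 176 marker-poor cells. Over all members, 2183 of 11528 genes tested passed (18.9%), 1290 higher (11.2%) and 893 lower (7.75%). Scaled to library totals without TMM, which moved the median of all genes to 0.15, 1743 were higher and 436 lower. Without the marker-poor members 105 of 10593 passed (0.991%), 55 higher (0.519%) and 50 lower (0.472%), of which 39 and 42 had also passed with all members. With all members, of 22 protoplasmic astrocyte genes 0 were higher and 17 lower, with a median log2 fold change of −0.40, against 0.01 over all genes tested. The limit left out 176 members for few astrocyte transcripts and 0 Gfap-rich cells, so astrocyte genes rise in members in part by that choice. After the marker-poor cells were left out, 2 of 17 were higher and 0 lower, with a median of 0.14, against 0.00 over all genes tested. The 2 were F3, tissue factor, at 0.30 and Mfge8, a bridging protein for phagocytosis, at 0.38. With all members these genes stood at −0.17 (edgeR adjusted p = 0.0745) and −0.07 (edgeR adjusted p = 0.534; 0.065 scaled to library totals). Of 18 cholesterol and lipid genes 15 were lower with all members, Apoe among them at −0.47 ± 0.05 (edgeR adjusted p = 6.51e-20), and 2 of 18 without the marker-poor cells, where Apoe stood at −0.03. Of 15 ion and water homeostasis genes 10 were lower and 1 higher, and 0 of 13 passed without the marker-poor cells. Of 17 genes of glycolysis, lactate and glycogen 11 were lower and 0 higher, and 1 of 16 was lower without the marker-poor cells. Of 20 astroglial and regional transcription factors, 3 were higher and 9 lower, such as Sox9 at −0.49 ± 0.08 (edgeR adjusted p = 3.62e-09), and 0 of 20 passed without the marker-poor cells, where Sox9 stood at −0.03. Glul, the glutamine synthetase, was lower in both, by −0.68 ± 0.06 (edgeR adjusted p = 1.12e-26) with all members and by −0.24 without the marker-poor cells.

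**Figure D2:**
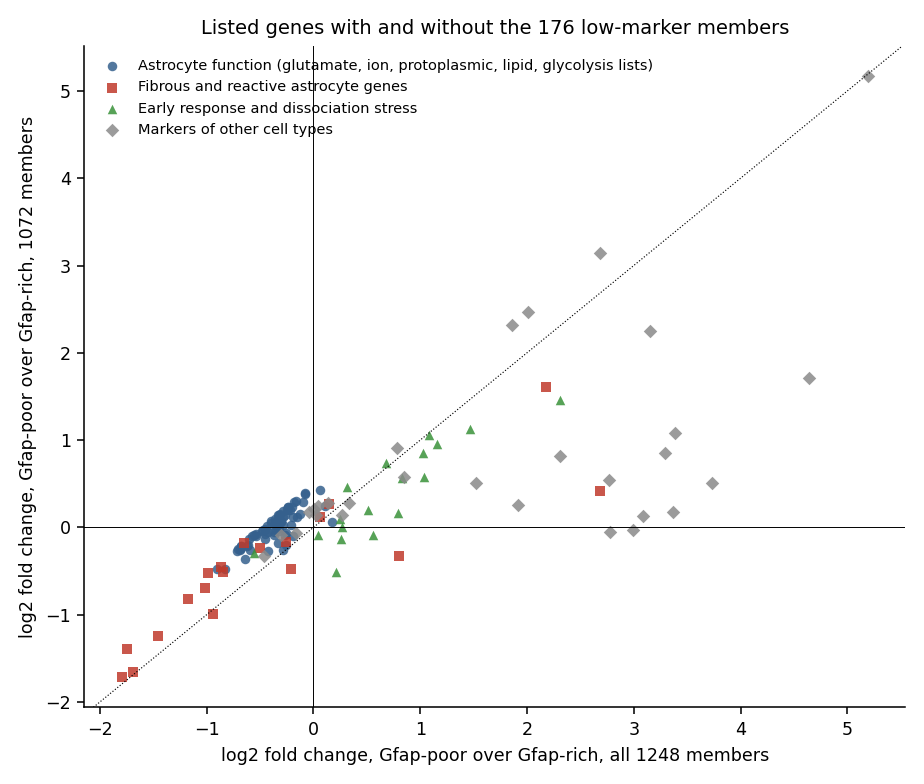
Log2 fold change of Gfap-poor over Gfap-rich astrocytes for listed genes, with all 1248 members (horizontal axis) and with the 1072 marker-bearing members (vertical axis), 1 point per gene, with a dotted line where both are equal. Most blue astrocyte function genes lie left of 0 with all members and gather near 0 without the marker-poor cells. Of the red fibrous and reactive genes, C4b lies below 0 in both fits and Vcan above 0 in both. Without the marker-poor cells 7 of 19 red genes passed as lower, 0 as higher, and 12 did not pass. Most grey markers of other cell types drop towards 0.

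Of 22 fibrous and reactive astrocyte genes 5 were higher and 12 lower, with a median log2 fold change of −0.58, and without the marker-poor cells 0 of 19 were higher and 7 lower, with a median of −0.48. The 7 were S100a6, C4b, Id1, Id3, Thbs4, Igfbp5 and Cd9, of which S100a6, a calcium-binding protein, had not passed with all members. Cd9, a tetraspanin that oligodendrocytes also make, turned round, at 0.80 ± 0.07 with all members (edgeR adjusted p = 2.08e-24) and −0.33 without the marker-poor cells. With DESeq2 over all members Cd9, Id1 and Thbs4 missed the threshold (adjusted p = 0.127, 0.0597 and 0.578). Without the marker-poor cells Thbs4 stood at −0.14 in library 1 alone and −2.18 in library 2 alone, and Id1 at −0.12 and −0.68. Thbs4 was found in 22 marker-bearing members, and 5 cells held 54.2% of its UMIs there. All 5 oligodendrocyte precursor markers and 4 of 5 oligodendrocyte markers were higher with all members, and 0 of 3 and 0 of 5 passed without the marker-poor cells.

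Some higher genes rested on very few cells even among the marker-bearing members. Acta2, smooth muscle actin, stood at 105 and 203 CPM in these members and 5.10 and 3.86 CPM in Gfap-rich astrocytes, but 5 cells held 96.5% of its UMIs. The haemoglobin gene Hbb-bs stood at 5217 and 1500.4 CPM in marker-bearing members and 807 and 100.4 CPM in Gfap-rich astrocytes, with 81.6% of its UMIs in 5 cells. Ttr, which choroid plexus secretes, stood at 7.87 and 1380 CPM, against 3.40 and 286 CPM in Gfap-rich astrocytes, with 76.0% of its UMIs in 5 cells, and missed the threshold with DESeq2 over all members (adjusted p = 0.405). The early response gene Fos, induced by activity and by tissue dissociation, stood at 85.4 and 159 CPM in all members and 23.0 and 75.9 CPM in Gfap-rich astrocytes, 1.16 ± 0.13 (edgeR adjusted p = 5.5e-16), and 0.95 without the marker-poor cells. In the marker-bearing members 5 cells held 57.9% of the Fos UMIs and 42.3% of those of Egr1. Of 19 early response genes 13 were higher and 1 lower, and without the marker-poor cells 4 of 18 were higher, Fos, Junb, Egr1 and Btg2. Of these 4, Junb, Egr1 and Btg2 passed no threshold with DESeq2 (adjusted p = 0.126, 0.108 and 0.226). Fos alone was higher by 1.75 in library 1 and by 0.93 in library 2.

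In Id4, Mfge8 and Serpinf1, marker-bearing members with no Gfap UMI and those with some lay on the same side of the Gfap-rich cells. These genes had already passed between marker-bearing members and Gfap-rich cells, so the shared side follows in part from that choice. Id4 stood at 295 and 327 CPM in members with no Gfap, 375 and 439.5 CPM in members with some and 476 and 548 CPM in Gfap-rich astrocytes. Mfge8 ran the other way, with 1451 and 1653 CPM, 1248 and 1341 CPM, and 1012 and 1154 CPM in the same groups. In both genes the order was the same in both libraries. Serpinf1 had little such order among marker-bearing members, with 25 and 13.9 CPM in those with no Gfap and 25.2 and 19.4 CPM in those with some. Among these groups it was high in Gfap-rich cells alone. The marker-poor members, outside these groups, held 53.0% of the members' Serpinf1 UMIs. These levels by Gfap class are a description.

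**Figure D3:**
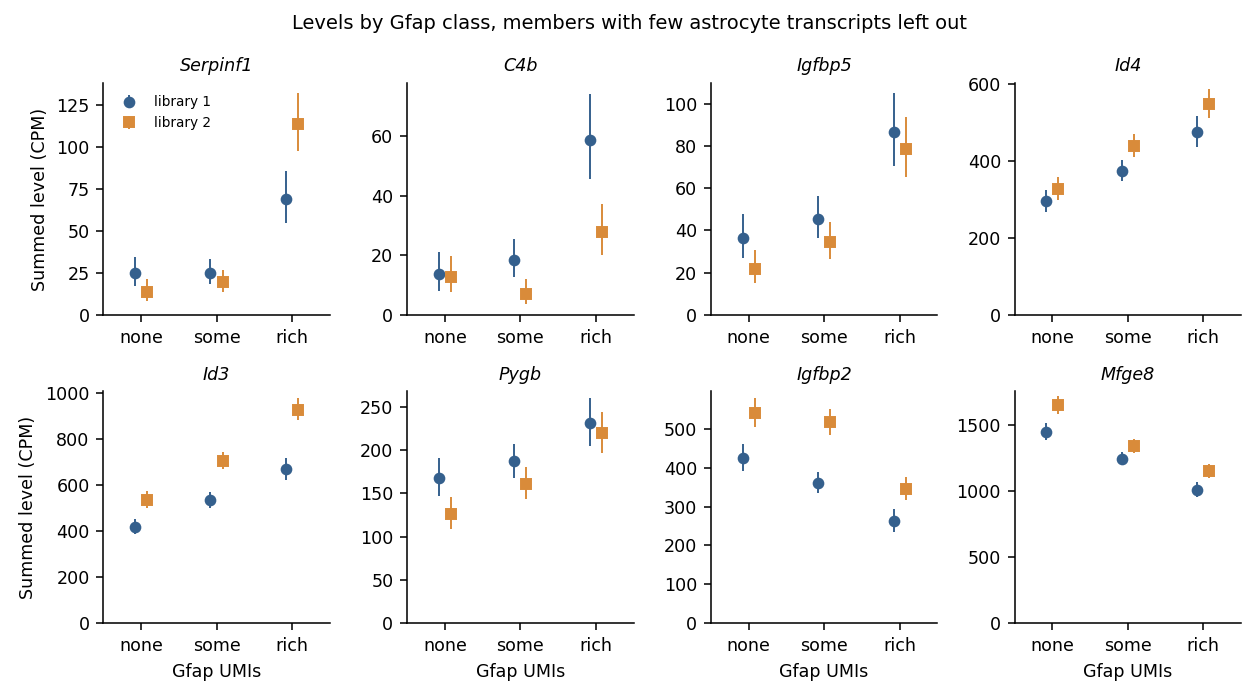
Summed level in CPM of 8 genes in marker-bearing members with no Gfap UMI, marker-bearing members with some, and Gfap-rich astrocytes, with 1 point per library and exact Poisson 95% intervals as bars. Id4 and Id3 step up and Mfge8 steps down from no Gfap to Gfap-rich in both libraries, while Serpinf1, C4b and Igfbp5 stand apart in Gfap-rich cells.

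Against radial glia-like stem cells, most of the listed genes for glutamate recycling, ion transport, gap junctions and lipid supply were higher in Gfap-poor astrocytes, and most of those of the early lineage and of the cell cycle were lower. Of 13101 genes tested 3937 passed (30.1%), 2132 higher (16.3%) and 1805 lower (13.8%), with a median log2 fold change of −0.01. Scaled to library totals, 2313 were higher and 2785 lower. Without marker-poor cells on either side, 5446 of 11939 passed (45.6%), 2840 higher (23.8%) and 2606 lower (21.8%), and 1572 and 1455 were called in both. The 171 radial glia-like cells under the same limit were left out with the 176 members. Without these 171 the radial glia-like sums went from 4924161 to 3974135 UMIs in library 1 and from 8240761 to 5310169 in library 2. The choroid plexus markers of these sums went from 4913 and 80722 CPM to 12.3 and 2625 CPM. The glutamate and GABA list went from 11654 and 9393 CPM to 13938 and 13968 CPM. Levels of single genes in radial glia-like cells below are over all 1579.

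Of 10 glutamate and GABA handling genes 8 were higher and 0 lower (median 1.40), and 7 of 8 were higher without marker-poor cells. Glul stood at 2270.3 and 1887 CPM in members and 869.8 and 769 CPM in radial glia-like cells, 1.43 ± 0.14 (edgeR adjusted p = 0.00263). The GABA transporter Slc6a11 stood at 382 and 397 CPM in members, against 174 and 137 CPM, 1.42 ± 0.13 (edgeR adjusted p = 0.00255). The metabotropic glutamate receptor Grm3 was higher by 1.70 ± 0.12 (edgeR adjusted p = 0.00133). Members were thus above radial glia-like cells in each library for these 3 genes. Of 15 ion and water homeostasis genes 12 were higher and 0 lower (median 0.94), and 12 of 14 were higher and 1 lower without marker-poor cells. The bicarbonate cotransporter Slc4a4 stood at 1581 and 1747 CPM in members and 153 and 125 CPM in radial glia-like cells, 3.68 ± 0.16 (edgeR adjusted p = 0.000547). The potassium channel Kcnj16 was higher by 2.28 ± 0.13 (edgeR adjusted p = 0.000912), and Atp13a4, a P5-type ATPase, by 4.75 ± 0.21 (edgeR adjusted p = 0.000562). Both tested connexins were higher, Gja1 (connexin 43) with 1984 and 2320 CPM in members and 413 and 373 CPM in radial glia-like cells.

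Of 22 protoplasmic astrocyte genes 20 were higher and 1 lower (median 2.01), and 16 of 17 were higher and 1 lower without marker-poor cells. Grin2c, an NMDA receptor subunit gene, stood at 187 and 176 CPM in members and 6.50 and 6.07 CPM in radial glia-like cells, 4.93 ± 0.14 (edgeR adjusted p = 0.000489). F3 stood at 826 and 694 CPM in members, against 72.5 and 51.2 CPM, 3.72 ± 0.13, and Btbd17 at 409 and 339 CPM, against 35.9 and 24.5 CPM, 3.74 ± 0.13 (edgeR adjusted p = 0.000489 for both). The serine and glycine transporter Slc7a10 was higher by 2.5 ± 0.13. The 1 lower member of the list was Itih3. Of 14 synapse genes 10 were higher and 1 lower (median 0.83), and without marker-poor cells 10 of 13 were higher and 2 lower. The list was led by Bcan, the perineuronal proteoglycan brevican, at 1148 and 1198 CPM in members and 193 and 147 CPM in radial glia-like cells, and by the engulfment receptor Mertk at 456.5 and 453 CPM, against 92.8 and 64.3 CPM. Of 19 cholesterol and lipid genes 11 were higher and 0 lower (median 0.81), and 17 of 18 were higher without marker-poor cells (median 1.09). Msmo1, an enzyme of sterol synthesis, stood at 664 and 972 CPM in members and 171 and 187.5 CPM in radial glia-like cells, and the lipoprotein gene Clu at 5174 and 5013 CPM, against 1660 and 1595 CPM. Apoe stood at 27023 and 25913 CPM in members and 14004 and 11214 CPM in radial glia-like cells, 1.17 ± 0.17 (edgeR adjusted p = 0.00860). Of 17 genes of glycolysis, lactate and glycogen 6 were higher and 2 lower (median 0.32), and 13 of 16 were higher and 2 lower without marker-poor cells (median 0.93). The glucose transporter Slc2a1 was higher by 1.71 ± 0.15 and the lactate transporter Slc16a1 by 0.98 ± 0.14 (edgeR adjusted p = 0.00219 and 0.00769). The muscle glycogen phosphorylase Pygm stood at 63.9 and 49.9 CPM in members and 3.86 and 14.7 CPM in radial glia-like cells, 4.16 in library 1 alone and 1.79 in library 2 alone. Without marker-poor cells its log2 fold change was 4.63 in library 1 alone and 4.78 in library 2 alone.

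**Figure D4:**
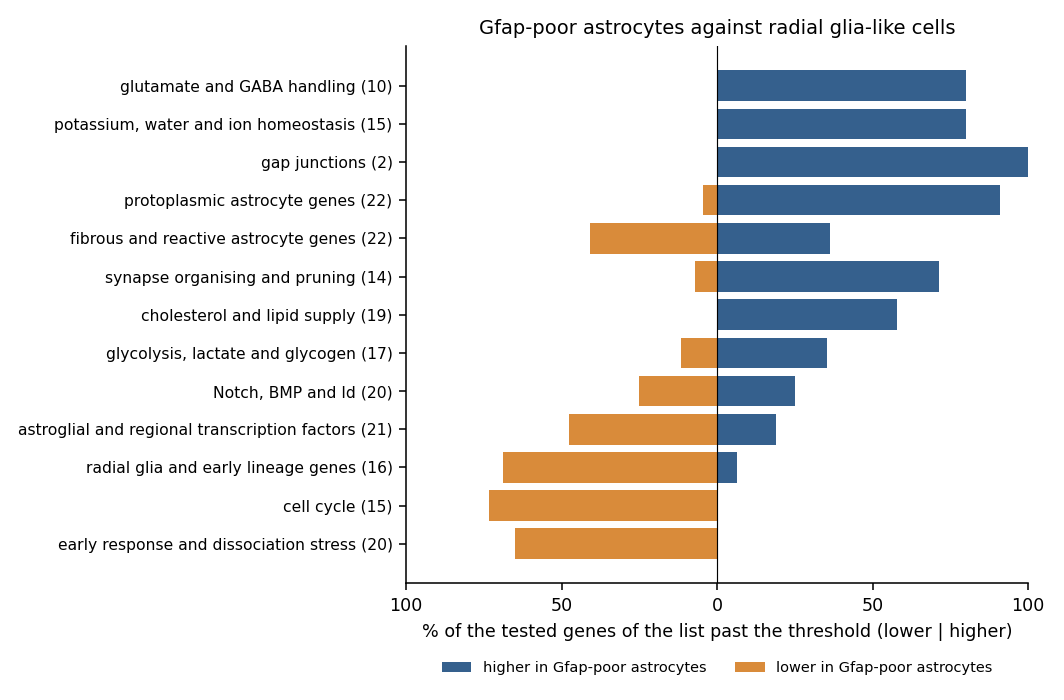
Share of the tested genes of each list (number tested in brackets) past the adjusted p threshold in Gfap-poor astrocytes against radial glia-like cells, with higher to the right and lower to the left of 0. The lists of glutamate handling (8 of 10 higher), ion homeostasis (12 of 15) and protoplasmic genes (20 of 22) point right, and cell cycle (11 of 15 lower) and early lineage genes (11 of 16) point left.

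Of 16 radial glia and early lineage genes 1 was higher and 11 lower (median −1.31), and 2 were higher and 12 lower without marker-poor cells. Neuroblast markers, at 5 UMIs or more, were carried by 395 of the 1579 radial glia-like cells (25%), against 69 of the members (5.53%). They summed to 337 and 220 CPM in members and 776 and 545 CPM in radial glia-like cells, and without marker-poor cells to 58.1 and 92.8 CPM in members and 477 and 498 CPM in radial glia-like cells. Their part in the lower early lineage and cell cycle genes was not tested. Ccnd2, a G1 cyclin, stood at 45.7 and 87.7 CPM in members, against 617 and 525 CPM, −3.06 ± 0.28 (edgeR adjusted p = 0.00244). The lysophosphatidic acid receptor Lpar1 stood at 19.1 and 10.3 CPM in members, against 85.9 and 71.0 CPM in radial glia-like cells, and at 0.908 and 3.57 CPM in the marker-bearing members. The intermediate filament gene Nes was lower by −3.07 ± 0.24 (edgeR adjusted p = 0.00165). Of 15 cell cycle genes 11 were lower and 0 higher (median −2.33), and 9 of 12 were lower and 1 higher without marker-poor cells (median −1.56). Summed over the list, members had 362 and 301 CPM and radial glia-like cells 890.1 and 825 CPM, and without marker-poor cells members had 223 and 207 CPM and radial glia-like cells 463 and 386 CPM. The replication helicase subunit Mcm6 stood at 8.22 and 8.86 CPM in members and 69.5 and 39.6 CPM in radial glia-like cells, −2.53 ± 0.23 (edgeR adjusted p = 0.00248). Mki67, a marker of dividing cells, was lower by −3.05 ± 0.24 with all members (edgeR adjusted p = 0.00174), but stood at −0.39 without marker-poor cells, where the libraries went opposite ways. The marker-bearing members held only 17 Mki67 UMIs, in 2 cells, with 16 of them in 1 cell. Of 20 early response genes 13 were lower and 0 higher (median −1.10), and 15 were lower and 1 higher without marker-poor cells. Fos stood at 85.4 and 159 CPM in members and 777 and 793 CPM in radial glia-like cells. Whether Fos differed before dissociation was not tested.

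Of 21 astroglial and regional transcription factors (median −0.46) 10 were lower, against 13.8% of all genes tested, and 4 were higher, a share near the 16.3% of all genes tested. Without marker-poor cells 7 were higher and 11 lower. Rorb, an orphan nuclear receptor, stood at 402.5 and 491 CPM in members and 76.2 and 67.6 CPM in radial glia-like cells, 2.72 ± 0.15 (edgeR adjusted p = 0.000824). Emx1, a cortical homeobox gene, stood at 1.94 and 2.80 CPM in members, against 87.7 and 53.4 CPM, −4.75 ± 0.27 (edgeR adjusted p = 0.000905). Nfix, a nuclear factor I gene, was lower by −1.09 ± 0.13 (edgeR adjusted p = 0.00446). Of 20 Notch, BMP and Id genes 5 were higher and 5 lower, and 6 of 16 were higher and 7 lower without marker-poor cells. Bmpr1b, a BMP receptor, was higher by 1.47 ± 0.12 (edgeR adjusted p = 0.00202), while Notch2 and Id4 were lower by −1.41 ± 0.12 and −0.86 ± 0.12 (edgeR adjusted p = 0.00218 and 0.00689). Id4 was thus lower in members than in both other groups. Of 22 fibrous and reactive genes 8 were higher and 9 lower, and 7 were higher and 11 lower without marker-poor cells. Vcan and Gap43 stood at 2.46 and 3.76 with all members and at −0.11 and −0.05 without marker-poor cells. With marker-poor cells left out on both sides, the rule for the largest differences added Dner, a neuronal Notch-like membrane protein, at 85.2 and 93.0 CPM in members and 1.42 and 4.73 CPM in radial glia-like cells, and Sfrp1, a secreted Wnt inhibitor, at 3.39 and 2.10 CPM in members and 101 and 68.1 CPM in radial glia-like cells. Their log2 fold changes were 4.84 ± 0.34 and −4.84 ± 0.18 with all members (edgeR adjusted p = 0.00133 and 0.000489), and Dner had 5.95 in library 1 alone and 4.31 in library 2 alone. Markers of choroid plexus were in radial glia-like cells, with Ttr at 7.5 and 2869 CPM in members and 4899 and 80582 CPM in radial glia-like cells. The Ttr log2 fold change of −6.54 with all cells, −9.19 in library 1 alone and −4.78 in library 2 alone, was −0.52 without marker-poor cells.

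Members also varied in Agt, the last label marker (ENSMUSG00000031980, minus strand of chromosome 8, 124556534 to 124569706 in mm10). The 312 members with the most Agt UMIs per 10000, at least 6.06, are called Agt-rich and the other 936 Agt-poor, of which 429 had no Agt UMI. The Agt-rich share was 19.7% of members in library 1 (119 cells, 16.6 to 23.1%) and 30.0% in library 2 (193 cells, 26.5 to 33.7%). Of the 176 marker-poor members 1 was Agt-rich and 175 Agt-poor. Leaving them out thus raises astrocyte genes in Agt-poor members in part by that choice. Genes higher in Agt-rich members with and without the marker-poor cells included Itih3, which encodes a heavy chain that binds hyaluronan, the glycine transporter Slc6a9, Etnppl, a phospholyase of ethanolamine phosphate, and the sodium-activated potassium channel Kcnt1.

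Itih3 stood at 116 and 106 CPM in Agt-rich members and 30.3 and 25.8 CPM in Agt-poor members, 2.15 ± 0.18 (edgeR adjusted p = 7.29e-17), and 1.59 without the marker-poor cells. Paqr6, a membrane progestin receptor, stood at 119 and 104 CPM in Agt-rich members, against 35.5 and 28.3 CPM, 1.98 ± 0.18 (edgeR adjusted p = 1.77e-15) and 1.38. Etnppl stood at 97.7 and 181 CPM in Agt-rich members, against 45.5 and 36.4 CPM, 1.95 ± 0.18 (edgeR adjusted p = 6.98e-15) and 1.36. The Agt-rich members were higher in each library for these 3 genes, and Etnppl had 1.22 in library 1 alone and 2.51 in library 2 alone. Slc6a9 was higher by 1.77 ± 0.22, Kcnt1 by 1.71 ± 0.23 and the galactosyltransferase B3galt2 by 1.68 ± 0.15 (edgeR adjusted p = 4.19e-10, 7.78e-09 and 3.45e-15), and by 1.5, 1.36 and 1.29 without the marker-poor cells. Kcnt1 had 1.10 in library 1 alone and 2.14 in library 2 alone. Nnat, an imprinted proteolipid gene, named by the rule only without the marker-poor cells, stood at 400.0 and 349.5 CPM in Agt-rich members and 147 and 154.5 CPM in Agt-poor members, 1.47 ± 0.15 (edgeR adjusted p = 1.57e-12) and 1.61. Sparc, a matrix protein that limits synapse assembly, rose by 1.03 ± 0.17 and its relative Sparcl1, which promotes it, by 1.10 ± 0.14 (edgeR adjusted p = 2.23e-06 and 7.67e-10), and by 1.20 and 0.57 without the marker-poor cells. Kcnj16 rose by 1.20 ± 0.16 (edgeR adjusted p = 3.82e-09) and 0.76.

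Lower in Agt-rich members was Vim, the intermediate filament gene vimentin, at 43.6 and 34.5 CPM in Agt-rich members and 87.3 and 135 CPM in Agt-poor members, −1.39 ± 0.20 (edgeR adjusted p = 4.24e-08), and −1.55 without the marker-poor cells. In the marker-bearing members 5 cells held 45.0% of the Vim UMIs. Fos stood at 21.1 and 66.2 CPM in Agt-rich members and 97.7 and 190 CPM in Agt-poor members, −1.53 ± 0.18 (edgeR adjusted p = 2.34e-10) and −1.38. Egr1 was lower by −1.61 ± 0.24 (edgeR adjusted p = 1.13e-07) and by −1.31. Here too few cells weighed much, with 57.9% of the Fos UMIs and 42.3% of the Egr1 UMIs of marker-bearing members in 5 cells each. Over all members 1790 of 11040 genes passed (16.2%), 697 higher (6.31%) and 1093 lower (9.90%). Scaled to library totals, which moved the median of all genes to −0.18, 339 were higher and 1504 lower. Without the marker-poor cells 61 of 9893 passed (0.617%), 34 higher (0.344%) and 27 lower (0.273%), of which 32 and 25 were called in both. Of 22 protoplasmic genes 15 were higher and 0 lower (median 0.70, against −0.01 over all genes tested), and 2 of 17 without the marker-poor cells, Itih3 and Sparcl1. Of 18 cholesterol and lipid genes 13 were higher, Apoe among them at 0.66 ± 0.09 (edgeR adjusted p = 1.39e-08), and 0 of 18 without the marker-poor cells, where Apoe stood at 0.11. Of 20 transcription factors 5 were higher and 2 lower, and 0 of 20 passed without the marker-poor cells.

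**Figure D5:**
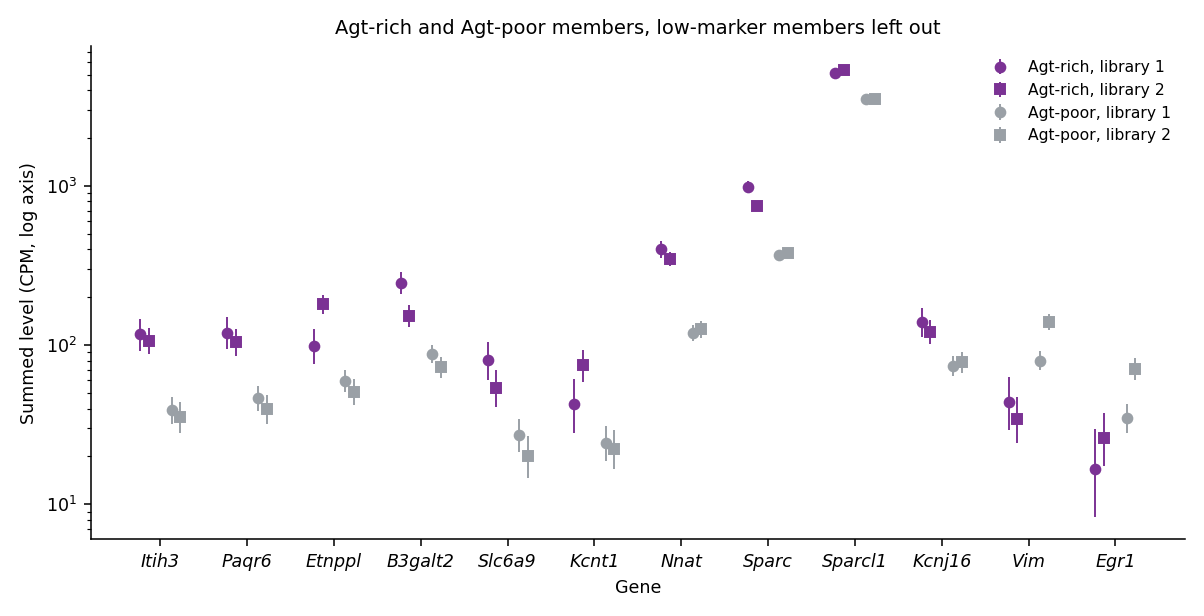
Summed level in CPM (log axis) of 12 genes in Agt-rich and Agt-poor marker-bearing members, with 1 point per library and exact Poisson 95% intervals as bars. Itih3, Paqr6, Etnppl, B3galt2, Slc6a9, Nnat, Sparc and Sparcl1 lie higher in Agt-rich members in both libraries, and Vim and Egr1 lie lower.

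Phf2, the histone demethylase gene that the knockout targets, stood at 20.3 CPM in the members of library 1 and 16.1 CPM in those of library 2, and the intervals overlapped (16.2 to 25.2 and 12.5 to 20.4 CPM). Over both libraries 136 of the 1248 members held a Phf2 UMI. Against Gfap-rich astrocytes, at 22.1 and 16.7 CPM, its log2 fold change was −0.23 ± 0.26 (edgeR adjusted p = 0.648). Against radial glia-like cells, at 16.2 and 10.9 CPM, it was 0.53 ± 0.19 (edgeR adjusted p = 0.0980, DESeq2 adjusted p = 0.637). Without marker-poor cells it was 0.69 and past the threshold (edgeR adjusted p = 0.00643), in a fit where 45.6% of all genes tested passed. In Agt-rich members Phf2 stood at 18 and 21.4 CPM, against 20.8 and 14.3 CPM in Agt-poor members, 0.40 ± 0.33 (edgeR adjusted p = 0.480). Read positions in Phf2 were not examined, and its UMIs may still come from a gene with an exon removed. The levels say nothing of genotype.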

How the data were processed

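The authors deposited 1 unfiltered matrix of whole-number UMI counts for 32285 genes, without normalization. Per the submitters' processing notes, the tools were Cell Ranger 4.0.0 and Scanpy 1.7.0 and the genome build mm10. What else was done was not given in the sources used here. Members, marker lists and gene lists were chosen with earlier results of these data known.

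Cells were filtered and grouped by the rule given above. Counts were summed per library and group, and tested in edgeR 4.0.16 (R 4.3.3) by its quasi-likelihood test (two-sided) after filterByExpr and TMM scaling. The model had a library block, since each library gives both sums of a contrast. P-values were adjusted by Benjamini-Hochberg across every gene tested, with a threshold of 0.05. The 19 genes of the rule were left out of the tested rows, and in the fits without marker-poor cells also the 10 markers that defined these. The 2 libraries left 1 residual degree of freedom, so p-values rest on these 2 libraries and not on mice. They also lean on dispersion estimated across genes. Each SE is the absolute log2 fold change divided by the square root of the test's F statistic. It is not a measure of the gene's spread between libraries. Sums held 664973 to 8240761 UMIs. Levels have exact Poisson and shares exact Clopper-Pearson 95% intervals. Doublets were marked with Scrublet through scanpy 1.11.5 and kept in the main analysis. The fits were tested on simulated counts with known changes.

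Named genes were, per contrast, up to 4 of each list with the smallest adjusted p past the threshold, and up to 6 higher and 6 lower genes with the largest fold, the same direction in both libraries and at least 50 CPM in the higher group. Genes named as members of a called subset of a list, Igfbp2 against Gfap-rich astrocytes, and genes shown for cells of other types fall outside it and were chosen after their values were seen. Some genes that the rule names are not reported here.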

Additional observations from a re-analysis of the deposited data

How the results depend on the processing

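Leaving out the 176 marker-poor members changed the counts of 2 contrasts most: in Gfap-poor against Gfap-rich astrocytes 55 genes were higher and 50 lower, in Agt-rich against Agt-poor members 34 and 27, and the member share was 6.32% and 6.56% of kept cells. DESeq2 called 224 higher and 118 lower against Gfap-rich astrocytes, 1276 and 958 against radial glia-like cells, and 148 and 215 by Agt. With DESeq2 13 of the genes checked against Gfap-rich astrocytes and 2 by Agt missed the threshold. Without TMM 436 genes were lower against Gfap-rich astrocytes, 2785 lower against radial glia-like cells, and 339 higher by Agt. A rule minimum of 8 UMIs in place of 4 gave 643 higher and 406 lower against Gfap-rich astrocytes, and 2718 lower against radial glia-like cells. Splitting at the median of Gfap gave 1353 lower. A mitochondrial limit of 10% gave member shares of 4.71% and 4.27%.

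Without the library block, 350 genes were lower against Gfap-rich astrocytes, and 349 higher and 725 lower by Agt. Fos, Sox9, Gja1, Cd44, Chrdl1 and Ttr against Gfap-rich astrocytes, Ttr against radial glia-like cells, and Egr1, Ccnd2 and Ttr by Agt then missed the threshold. Of the named genes, these turned sign against Gfap-rich astrocytes: without marker-poor cells Mfge8 (0.38), F3 (0.30) and Cd9 (−0.33), with a minimum of 8 UMIs F3 (0.011) and Mfge8 (0.13), without TMM Mfge8 (0.065), and with the split at the median Acta2 (−0.52). Against radial glia-like cells Vcan (−0.11) and Gap43 (−0.046) did so without marker-poor cells. The cause was not tested.

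Leaving out Scrublet doublets or cells under 3000 UMIs, and splitting by Gfap or Agt within classes of depth, moved no count of calls past 1.5 times. With 1 library left out no residual degree of freedom remains, so counts of calls have no such value and the named genes have a fold only. The p-values cannot speak for mice or genotypes, and genes under the low count filter were not tested in the results above.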
